A study of Mus musculus with 16 samples.

Results

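The genes of the mitochondrial ribosome were taken as all symbols made of Mrpl or Mrps, a number and at most 1 further letter. By this rule 76 of the 23420 genes in the count tables were members, 47 named for the large subunit (Mrpl) and 29 for the small subunit (Mrps). Large and small subunit below mean the symbol alone, whatever the place of the protein. Mrps18a and Mrps36, whose products are described further on as placed elsewhere, thus stayed in all small subunit counts, medians and sums. Poly-A RNA was sequenced from 8 male C57BL/6 mice, with a library of adipocytes isolated from subcutaneous fat and a library of whole liver from each mouse. The 16 libraries formed 4 groups of 4, which were adipocytes and liver of wild-type mice, and adipocytes and liver of mice labelled as carrying a Trib1 knockout restricted to adipocytes. Wild-type mice WT-1135, WT-1136 and WT-1138 and knockout-labelled mice KO-1137 and KO-1139 were 76 days old, and wild-type mouse WT-1153 and knockout-labelled mice KO-1151 and KO-1152 were 70 days old. The labels name neither the Cre driver nor the deleted stretch of Trib1, and they do not give a genotype for liver cells apart from that of the mouse.

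Mitochondrial ribosomes translate the few mRNAs of the mitochondrial genome, all of which encode subunits of the respiratory chain and the ATP synthase. Their RNAs come from the mitochondrial genome, but their proteins are encoded in the nucleus, made in the cytosol and imported, so a full ribosome needs output from both genomes. The small subunit binds and decodes the mRNA, and the large subunit joins the amino acids and passes the new chain toward the inner membrane. White fat cells hold fewer mitochondria than hepatocytes, and their mitochondria serve, among other tasks, the synthesis of fatty acids and glycerol for storage.

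The libraries held 28560887 to 53716669 counts each, and every member was counted in every library, with a lowest count of 202. All 76 members passed the filter on low counts in all comparisons. Trib1 RNA itself was not lower in the knockout-labelled groups, with a log2 difference of 0.28 ± 0.18 (SE) in adipocytes (adjusted p = 0.241, edgeR quasi-likelihood test with Benjamini-Hochberg adjustment) and of 0.12 ± 0.18 in liver (adjusted p = 0.875, same test). Counts over a whole gene need not fall when part of it is deleted, so the groups are called knockout-labelled. The labelled cell types were checked by defining markers. The 8 adipocyte markers summed to 24036 to 36607 TMM-scaled CPM in wild-type and, without overlap, 41197 to 45617 CPM in knockout-labelled adipocyte libraries, and to 51.4 to 113 CPM in liver. In adipocytes 3 of them rose and 0 fell between the genotypes (median log2 difference 0.36), and of 8 brown adipocyte markers 4 rose and 1 fell (median 0.50). The 8 hepatocyte markers summed to 117405 to 152834 CPM in liver, and in adipocytes to 37.6 CPM in the lowest wild-type and 28.7 CPM in the highest knockout-labelled library. Adipocyte libraries also held markers of other cells of fat, and these differed by genotype. Endothelial markers summed to 515 to 1468 CPM in wild-type and 147 to 328 CPM in knockout-labelled adipocyte libraries, and all 8 fell (median log2 difference -1.91). Fibroblast markers went from 1215 to 1329.5 CPM in the former group to 556 to 1025 CPM in the latter (7 of 8 fell), and mural cell markers from 223 to 337 CPM to 91.3 to 148 CPM (7 of 8 fell). None of the 7 macrophage markers tested changed past the threshold.

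Members lay on 17 chromosomes, with 10 of the 76 on chromosome 11 (GRCm38, the build also called mm10, with GENCODE M21 gene models). Of the members, 42.1% (32) had a protein-coding gene on the opposite strand that started within 1000 bases, against 15.4% of 12517 tested protein-coding genes. Pairs that overlap at their starts were counted together with pairs that point apart. One such neighbour pair joined the subunits, since Mrpl46 (chr7:78775236-78783531, minus strand) and Mrps11 (chr7:78783119-78792989, plus strand) started 412 bases apart. These genes overlap there and share 173 exon bases. Exons of 32 members overlapped exons of another gene, for 27 of them on the other strand, and whether the counting used strand is not given in the sources used here. A RefSeq promoter window from 250 bases before to 50 after the start (GRCm38.p6) was at hand for 67 members. Each window was searched on both strands for 4 short motifs, none of which contains another. Shares are of genes, and a gene with several windows had a motif if any of them did. The ETS-type motif CCGGAAG was found in 35.8% of these members, against 9.9% of all genes with a window and 18.8% of those tested in adipocytes. For the NRF1-type motif GCGCANGCG these shares were 22.4%, 7.0% and 14.5%, and for the YY1-type motif AAGATGGCG 11.9%, 1.6% and 3.4%. The SP1-type motif GGGCGG was found in 49.3% of these members, above the 38.2% of all genes and below the 67.1% of tested genes. At least 1 of the ETS-, NRF1- and YY1-type motifs was found in 59.7% of these members and 32.0% of tested genes with a window.

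The stretches printed here lie upstream of annotated exons and show these motifs in members that are described further on. Mrps22 and Mrps6 had large differences in adipocytes, Mrpl22 was far below its liver level in adipocytes and carries an ETS-type and an NRF1-type motif close together, and Mrpl43 and Mrpl10 carry a repeated ETS-type and an NRF1-type motif. Capitals mark ETS-type and NRF1-type matches, and in Mrps6, where neither was found, SP1-type matches. The sequences are RefSeq's (GRCm38.p6), read 5′ to 3′ on the strand of the gene.
Mrps22 (chr9:98601680-98601710, minus strand, ETS-type): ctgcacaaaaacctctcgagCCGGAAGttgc
Mrpl22 (chr11:58171591-58171659, plus strand, ETS-type and NRF1-type): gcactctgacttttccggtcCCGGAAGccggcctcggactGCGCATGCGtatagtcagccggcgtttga
Mrpl43 (chr19:45006443-45006518, minus strand, ETS-type): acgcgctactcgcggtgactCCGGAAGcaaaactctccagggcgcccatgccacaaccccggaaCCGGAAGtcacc
Mrpl10 (chr11:97041427-97041475, plus strand, NRF1-type): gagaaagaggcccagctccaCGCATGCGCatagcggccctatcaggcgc
Mrps6 (chr16:92058202-92058269, plus strand, SP1-type): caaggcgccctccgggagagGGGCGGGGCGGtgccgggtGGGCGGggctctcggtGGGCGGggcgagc

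In adipocytes, RNAs of the mitochondrial ribosome were more abundant in knockout-labelled than in wild-type mice. Of the 76 members 44 rose and 0 fell (adjusted p under 0.05, edgeR quasi-likelihood test with Benjamini-Hochberg adjustment over all 13795 genes tested), while over all tested genes 18.0% rose and 17.1% fell. The rise took in 25 of 47 large and 19 of 29 small subunit members. The median log2 difference was 0.29 for the large and 0.35 for the small subunit, against -0.01 for all tested genes. Of the members 75 had a difference above 0, and the exception was Mrpl52 at -0.06 ± 0.10 (SE). For 41 members, 23 large and 18 small, every knockout-labelled library was above every wild-type library, a pattern that held for 20.1% of all tested genes. In bulk RNA, fewer cells of a type and less RNA per cell cannot be told apart, and the adipocyte, endothelial, fibroblast and mural markers given above moved in the same comparison, the adipocyte ones with a median of 0.36 near the 0.31 of all members.

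**Figure D1:**
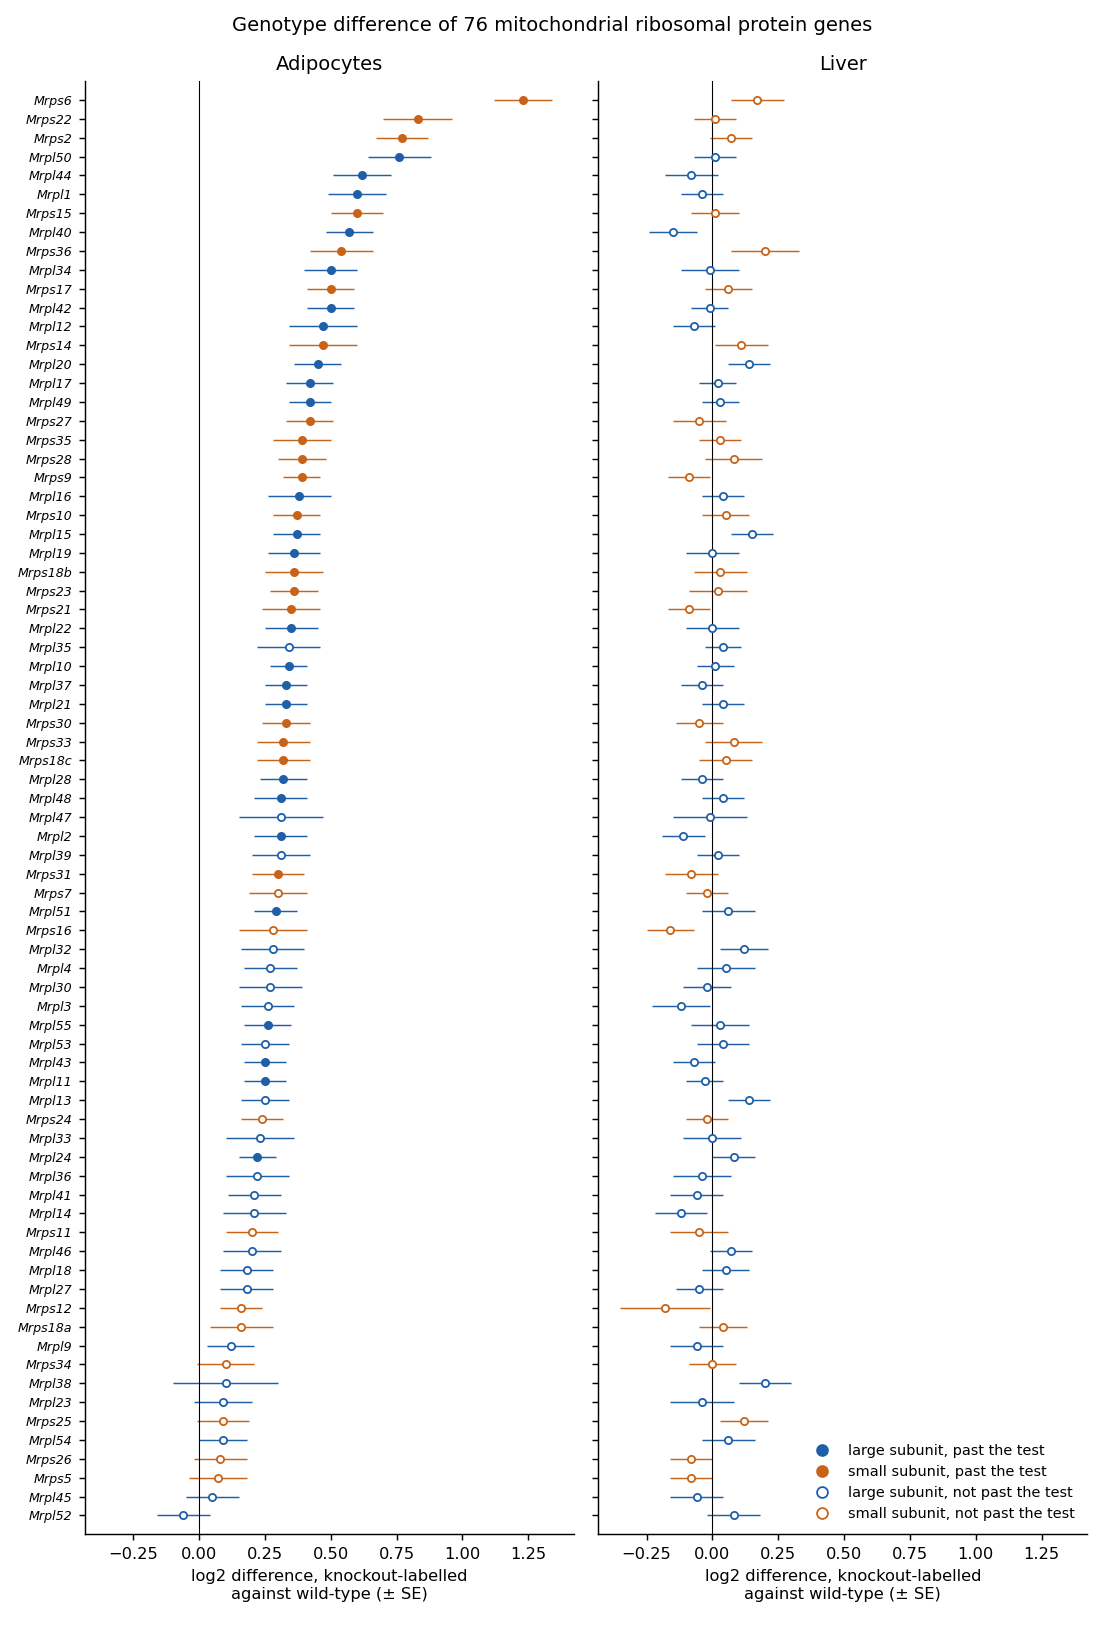
Log2 difference between knockout-labelled and wild-type mice (horizontal axis, ± SE) for each of the 76 members, in adipocytes (left) and liver (right), with filled points past the test. In adipocytes 44 members lie to the right of 0 past the test and Mrpl52 alone lies to the left of it under TMM scaling (62 members are above 0 when libraries are scaled by their totals), and in liver no point is filled.

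Among small subunit genes Mrps6, the counterpart of a bacterial small subunit protein, differed most. It stood at 35.3, 42.5, 44.6 and 50.8 CPM in the wild-type adipocyte libraries and at 97.1, 97.2, 108 and 109 CPM in the knockout-labelled ones. The groups were far apart, and the log2 difference was 1.23 ± 0.11 (SE, 2.34-fold, adjusted p = 0.000117, edgeR with Benjamini-Hochberg adjustment). Mrps6 (chr16:92058270-92112227) shares 159 exon bases on the same strand with Slc5a3, a myo-inositol transporter gene that lies within it. Slc5a3 counts went from a mean of 43.1 CPM to 105 CPM in the same libraries (log2 difference 1.26 ± 0.13, adjusted p = 0.000215, same test). How reads in the shared bases were assigned is not given in the sources used here, so the value of Mrps6 is uncertain. Its printed promoter stretch holds 4 copies of the SP1-type motif.

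Mrps2 (chr2:28468066-28471178) encodes a conserved protein of the small subunit and was at 20.9, 22.6, 22.6 and 24.2 CPM in wild-type and 31.8, 40.4, 41.3 and 42.4 CPM in knockout-labelled adipocytes. The groups did not overlap, with a log2 difference of 0.77 ± 0.10 (SE, adjusted p = 0.000842, edgeR with Benjamini-Hochberg adjustment). Mrps22 (chr9:98588730-98601660) is a protein of mitochondrial ribosomes without a bacterial counterpart, and changes in the human gene cause a mitochondrial disease. Its levels were 13.5, 14.4, 15.9 and 20 CPM in wild-type and 26.7, 27.2, 28.2 and 32.7 CPM in knockout-labelled adipocytes, a log2 difference of 0.83 ± 0.13 (adjusted p = 0.00157, same test). In liver both groups were at 25.2 to 29.0 CPM. Under TMM scaling the knockout-labelled adipocytes were thus near the liver level of Mrps22 and the wild-type adipocytes below it. This placement depends on scaling, since library totals alone raised the median adipocyte-to-liver difference of all genes by 0.65 (wild-type) and 0.41 (knockout-labelled). Mrps15, a conserved protein that binds the small subunit RNA, was at 47.0 to 52.8 CPM in wild-type and 65.0 to 86.1 CPM in knockout-labelled adipocytes (log2 difference 0.60 ± 0.10, adjusted p = 0.00214, same test). Mrps9 (0.39 ± 0.07) and Mrps17 (0.50 ± 0.09), 2 more conserved small subunit proteins, rose with adjusted p of 0.00356 and 0.00386 in the same test, and with library totals alone Mrps9 was at 0.20 and did not pass (adjusted p = 0.0523).

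Among large subunit genes Mrpl50 (chr4:49512596-49521093), a protein found in mitochondrial and not bacterial ribosomes, differed most. It was at 33.1, 40.2, 44.9 and 46.9 CPM in wild-type and 60.4, 71.3, 74.9 and 76.4 CPM in knockout-labelled adipocytes. The lowest knockout-labelled library was above the highest wild-type library, and the log2 difference was 0.76 ± 0.12 (SE, adjusted p = 0.00193, edgeR with Benjamini-Hochberg adjustment). Mrpl40 (chr16:18872018-18876862), also specific to mitochondrial ribosomes, was at 20.7, 22.2, 25.2 and 27.3 CPM and at 34.7, 36.0, 36.3 and 36.7 CPM, a log2 difference of 0.57 ± 0.09 (adjusted p = 0.00178, same test). The 4 knockout-labelled libraries lay close together for this gene and all above the wild-type ones. Mrpl44, which has a fold related to that of RNase III, was at 11.1 to 14.4 CPM and at 18.3 to 21.7 CPM (0.62 ± 0.11, adjusted p = 0.00257, same test). Mrpl1, the protein of the mobile stalk by which spent tRNAs leave, was at 13.2 to 17.0 CPM and at 20.1 to 26.0 CPM (0.60 ± 0.11, adjusted p = 0.00314, same test). Mrpl42 (0.50 ± 0.09) and Mrpl49 (0.42 ± 0.08) rose with adjusted p of 0.00300 and 0.00384.

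**Figure D2:**
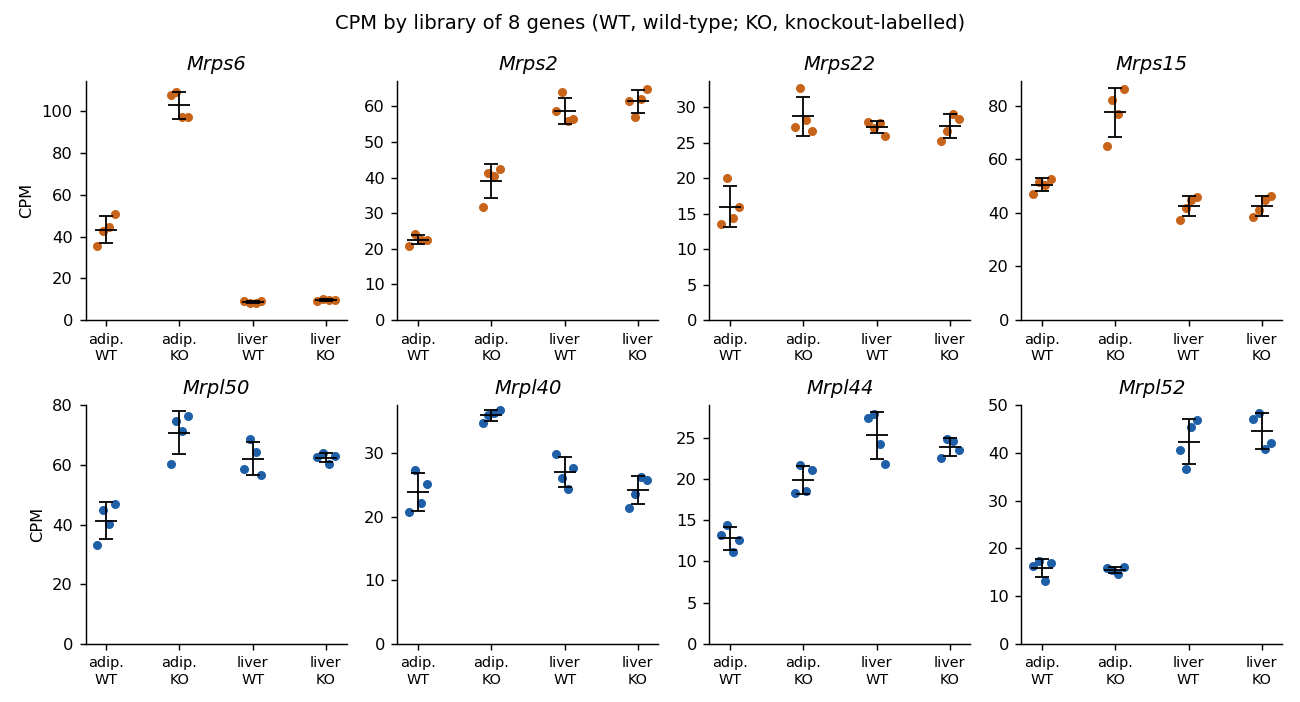
TMM-scaled CPM (vertical axes, starting at 0) of 8 members in each of the 16 libraries, with points for libraries and bars for the mean ± SD of 4. Mrps6, Mrps2, Mrps22, Mrps15, Mrpl50, Mrpl40 and Mrpl44 show knockout-labelled adipocytes above wild-type adipocytes without overlap, while for Mrpl52 these groups overlap.

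Members that did not pass the test are as much a feature of the set. Mrpl52 was at 13.2, 16.3, 17.0 and 17.4 CPM in wild-type and 14.6, 15.4, 15.8 and 16.2 CPM in knockout-labelled adipocytes, and the groups overlapped throughout. Mrpl38 was measured with the largest error of the set in adipocytes (0.10 ± 0.20), from 98.0 to 156 CPM in wild-type and 111 to 193 CPM in knockout-labelled libraries. The 3 paralogs of the Mrps18 family take different places, as background: the product of Mrps18c fills the site of the bacterial protein, that of Mrps18b sits elsewhere in the small subunit, and that of Mrps18a is part of the large subunit despite its name. Mrps18b (0.36 ± 0.11, adjusted p = 0.0328, edgeR with Benjamini-Hochberg adjustment) and Mrps18c (0.32 ± 0.10, adjusted p = 0.0369) rose, and Mrps18a was at 0.16 ± 0.12 (adjusted p = 0.313). Whether Mrps18a differed from its paralogs was not tested. The calls of Mrps18b and Mrps18c were lost without WT-1135 (adjusted p = 0.0944 and 0.0894, edgeR), WT-1138, WT-1153, KO-1139 or KO-1152, and that of Mrps18b also without KO-1151, while Mrps18a passed the test without WT-1136. With library totals alone Mrps18b was at 0.16 (adjusted p = 0.289, edgeR) and Mrps18c at 0.14 (adjusted p = 0.296). Both calls were also lost with 76-day mice only and with the marker score described further on, and that of Mrps18c with age as a covariate (adjusted p = 0.0534). Mrps36, whose product is now assigned to the oxoglutarate dehydrogenase complex and not to the ribosome, also rose (0.54 ± 0.12, adjusted p = 0.00952).

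Summed over members under TMM scaling, wild-type adipocyte libraries held 1835, 1930.3, 2110.2 and 2262 CPM of mitochondrial ribosome RNA. Knockout-labelled ones held 2442, 2622, 2731 and 2736 CPM, without overlap. As shares of all counts, which use no TMM scaling, the genotypes did overlap. Wild-type library WT-1136 held 0.287%, more than KO-1137 (0.282%) and KO-1151 (0.285%). A score of endothelial, fibroblast and mural markers (mean log2 CPM) lay at 3.56 to 4.71 in adipocytes of knockout-labelled mice. Those of wild-type mice lay at 5.04 to 6.31, without overlap. The mean log2 CPM of large subunit genes was 4.61 ± 0.13 (SD, n = 4) in wild-type and 4.94 ± 0.09 in knockout-labelled adipocytes, and that of small subunit genes 4.43 ± 0.14 and 4.83 ± 0.07. Large minus small was 0.16 to 0.22 in wild-type adipocytes, 0.09 to 0.13 in knockout-labelled adipocytes and 0.35 to 0.40 in all 8 livers. This within-library balance, which does not depend on scaling between libraries, thus had no overlap between the genotypes in adipocytes or between tissues. Without Mrps6, a choice made after the data were seen, it was 0.19 to 0.26 in wild-type adipocytes, 0.16 to 0.19 in knockout-labelled adipocytes and 0.29 to 0.34 in the livers, so the genotypes in adipocytes then met at 0.19. It is a description without a test, and since the genes differ in length only its change between groups is read.

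**Figure D3:**
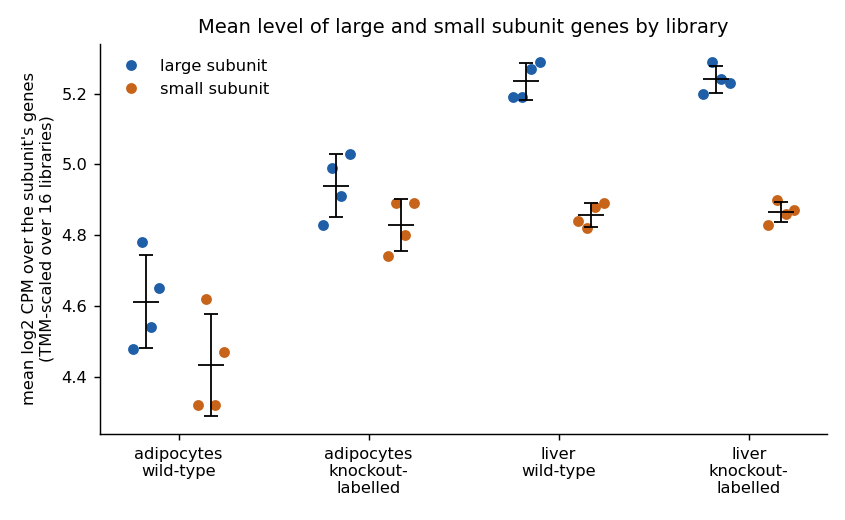
Mean log2 CPM over the 47 large and the 29 small subunit genes (vertical axis, TMM scaling over 16 libraries) in each library of the 4 groups, with bars for the mean ± SD of 4. Both subunits are higher in knockout-labelled than in wild-type adipocytes, and the gap between the subunits is widest in liver, at 0.35 to 0.40.

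The size of the adipocyte result depended on scaling and on the marker score. Scaling by library totals alone lowered the median log2 difference of all tested genes by 0.19 (shift -0.19). The members' median was 0.32 above that of all genes with either scaling, which was bound to hold, since scaling shifts all genes nearly alike. The count that rose was 14 of 76 with totals alone, where 9.37% of all tested genes rose and 28.3% fell. With the marker score as a covariate the members' median was 0.18, 63 were above 0 and only Mrps6 passed the test, while the members' median SE went from 0.10 to 0.20. The score did not overlap between the genotypes, and over all genes the calls went from 4849 to 441 in that fit, with 1.73% of genes higher. In that fit Mrps6 was at 1.01, Mrps22 at 0.69 (adjusted p = 0.212, edgeR with Benjamini-Hochberg adjustment), Mrps2 at 0.48 (adjusted p = 0.255), Mrpl40 at 0.35 (adjusted p = 0.343) and Mrpl50 at 0.29 (adjusted p = 0.481). With 76-day mice only, 3 wild-type and 2 knockout-labelled, 7 members rose and the median was 0.31, and 5.80% of all tested genes rose. The part of the other cell types and of age in the result was not tested further. Leaving out 1 library moved the count by over 1.5 times without wild-type WT-1135 (26), wild-type WT-1138 (26), knockout-labelled KO-1139 (25) or knockout-labelled KO-1152 (25), and 0 members fell in any of these fits.

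In liver no difference between the genotypes was found for the mitochondrial ribosome. Of the 76 members 0 passed the test in either direction with edgeR's quasi-likelihood test, against 0.0226% of all tested genes. Of the members 0 had an unadjusted p under 0.05, against 1146 of 13288 tested genes. Limma-voom called 0 members and 3 genes in all, and DESeq2 0 members and 102 genes in all. The medians were 0.00 for the large and 0.01 for the small subunit. The smallest p-values belonged to Mrpl38, with 0.20 ± 0.10 (SE, adjusted p = 0.604, edgeR with Benjamini-Hochberg adjustment), to Mrpl15 with 0.15 ± 0.08 (adjusted p = 0.630) and to Mrps16 with -0.16 ± 0.09 (adjusted p = 0.645). The summed level was 2841 to 3026 CPM in wild-type and 2868 to 3019 CPM in knockout-labelled livers, which overlapped almost fully. The median SE per member, 0.09, was close to that in adipocytes (0.10).

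The genotype differences of the tissues were then set against each other in a single model of all 16 libraries. For 24 members, 14 large and 10 small, the difference was higher in adipocytes than in liver, and for 0 lower (edgeR with Benjamini-Hochberg adjustment), against 10.4% of all tested genes that were higher. Of these 24, 23 had also risen in adipocytes, and the other was Mrps16. The median difference of differences was 0.32 for the large and 0.36 for the small subunit. Mrps6 led with 1.08 ± 0.14 (SE, adjusted p = 0.000127), followed by Mrps2 with 0.72 ± 0.13 (adjusted p = 0.00137) and Mrps22 with 0.84 ± 0.15 (adjusted p = 0.00177). In Mrps16, a conserved protein of the small subunit, adipocytes were at 14.7 to 22.4 CPM in wild-type and 21.4 to 25.7 CPM in knockout-labelled mice and livers at 24.4 to 29.4 and 22.9 to 24.3 CPM, with log2 differences between the genotypes of 0.28 and -0.16 that did not pass the test in either tissue alone. The count was 12 without mouse WT-1135, 38 without WT-1136, 14 without WT-1138, 13 without KO-1139, 15 without KO-1151 and 13 without KO-1152, and 8 with library totals alone.

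Adipocytes of wild-type mice held less mitochondrial ribosome RNA than their livers relative to the median gene. Of the members 57 were lower in adipocytes, 37 large and 20 small, and 5 higher (edgeR with Benjamini-Hochberg adjustment), while 37.2% of all tested genes were lower and 40.5% higher. The median log2 difference was -0.64 for the large and -0.57 for the small subunit, but with library totals alone, which raised the median of all genes by 0.65, these became 0.01 and 0.08, with 26 members higher and 18 lower, against 58.9% and 21.3% of all tested genes. Relative to the median gene the members' median was -0.70, and 7 of 76 members lay above that median gene. These values were the same with either scaling, as was bound to be, since scaling shifts all genes nearly alike. As a share of all counts the members made up 0.240 to 0.287% in wild-type adipocytes and 0.230 to 0.254% in wild-type livers, where the 50 most abundant genes took 22.7 to 26.3% and 34.4 to 37.7%.

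The largest falls were in the large subunit. Mrpl14, a conserved protein at the face that meets the small subunit, was at 15.1, 15.4, 16.2 and 20.2 CPM in wild-type adipocytes and at 47.1, 48.0, 54.8 and 57.5 CPM in wild-type livers, a log2 difference of -1.64 ± 0.12 (SE, adjusted p = 2.29e-07, edgeR with Benjamini-Hochberg adjustment). Mrpl15 (-1.58 ± 0.10, adjusted p = 7.09e-08), Mrpl52 (-1.42 ± 0.12, adjusted p = 9.98e-07) and Mrpl1 (-1.41 ± 0.10, adjusted p = 1.98e-07) fell as well, and Mrpl24 fell to a level 0.501 times that of liver (adjusted p = 7.45e-07). Mrpl22, whose promoter stretch is printed above and whose protein lines the exit tunnel, went from 22.4 to 27.0 CPM in liver to 9.18 to 10.7 CPM in adipocytes (-1.38 ± 0.11, adjusted p = 4.24e-07). In the small subunit Mrps2 fell most, from 55.9, 56.4, 58.6 and 64.0 CPM in liver to the adipocyte values given above (-1.39 ± 0.08, adjusted p = 6.52e-08). Mrps31 (-1.32 ± 0.12), Mrps18b (-1.23 ± 0.12), Mrps10 (-1.14 ± 0.09) and Mrps27 (-0.94 ± 0.09) followed, with adjusted p from 8.53e-07 to 3.76e-06 in the same test. These named genes had no overlap between the tissues, but they were named for small p-values or large falls in this same comparison. The lack of overlap thus describes that choice, and its share over all tested genes was not counted.

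The members that were higher in adipocytes were Mrps6, Mrpl3, Mrps25, Mrpl38 and Mrps15. Mrps6 was at 8.07, 8.23, 9.02 and 9.23 CPM in wild-type livers, far below its adipocyte values, and the log2 difference was 2.32 ± 0.13 (SE, 4.98-fold, adjusted p = 2.68e-08, edgeR with Benjamini-Hochberg adjustment). The overlapping Slc5a3 had a tissue difference of 2.81 ± 0.17 (adjusted p = 6.34e-08, same test). Mrpl3, a conserved protein near the catalytic centre, was at 27.7 to 33.7 CPM in adipocytes and 16.5 to 22.6 CPM in liver (0.61 ± 0.11, adjusted p = 0.000470), and Mrps25 at 17.4 to 21.6 and 12.9 to 15.0 CPM (0.48 ± 0.11, adjusted p = 0.00252). Exons of Mrps25 overlap exons of Nr2c2 on the other strand. The tissue difference of Nr2c2 was 1.08 ± 0.12 (adjusted p = 1.21e-05, same test). Whether the counting used strand is not given in the sources used here, so the value of Mrps25 is uncertain. Mrps15 (0.24 ± 0.09, adjusted p = 0.0315) and Mrpl38 (0.39 ± 0.17, adjusted p = 0.0485) did not pass with DESeq2 or with RLE scaling, where 3 members were higher. The count higher was also 3 without wild-type liver WT-1135 or WT-1136, or without wild-type adipocytes WT-1138 or WT-1153, and 4 without wild-type liver WT-1138 or wild-type adipocytes WT-1136. Mrps18a was level between the tissues (-0.01 ± 0.12, adjusted p = 0.963), and its paralog Mrps18c was lower in adipocytes (-0.52 ± 0.13, adjusted p = 0.00283), although at 0.12 and not past the test with library totals alone.

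In knockout-labelled mice, a comparison that shares no library with the wild-type one, 41 members were lower in adipocytes than in liver and 14 higher, with 39.3% of all tested genes lower and 40.4% higher. The medians were -0.39 for the large and -0.20 for the small subunit, and 0.02 and 0.21 with library totals alone, which raised the median of all genes by 0.41 (37 members higher and 15 lower, against 52.1% and 28.1% of all tested genes). All 41 were also lower in wild-type mice. A further 16 members were lower in wild-type mice and not past the test in knockout-labelled mice, among them Mrps22 (-0.78 ± 0.12 and 0.06 ± 0.09, SE) and Mrpl50 (-0.60 ± 0.12 and 0.17 ± 0.09). Another 10 did not pass the test in wild-type mice and were higher in adipocytes of knockout-labelled mice, such as Mrpl40 (-0.19 ± 0.11 and 0.56 ± 0.08) and Mrps9 (-0.03 ± 0.09 and 0.48 ± 0.07). For Mrps22, Mrpl50, Mrpl40 and Mrps9 the difference itself passed the test of all 16 libraries given above. For others it did not, such as Mrpl45 and Mrpl9 of the 16 (adjusted p = 0.581 and 0.327, edgeR with Benjamini-Hochberg adjustment). The same held for Mrps26 and Mrpl41 of the 10 (adjusted p = 0.350 and 0.152). A change of call is thus no test of a difference, and its share over all tested genes was not counted. Mrps6 reached 3.39 ± 0.08 (10.5-fold) and Mrpl3 1.01 ± 0.09. Mrpl52 was at -1.42 ± 0.12 and -1.53 ± 0.08, and its difference of differences was -0.11 ± 0.14 (adjusted p = 0.624, edgeR with Benjamini-Hochberg adjustment).

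**Figure D4:**
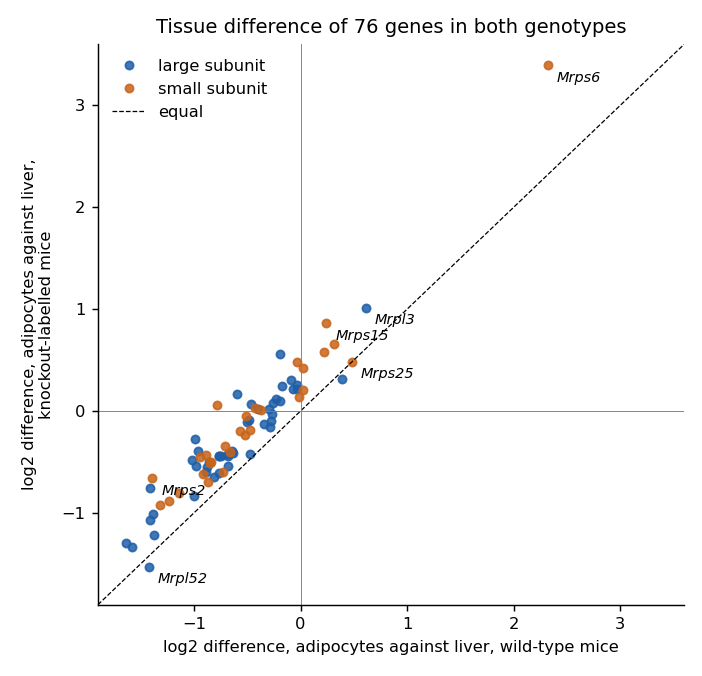
Log2 difference between adipocytes and liver of the 76 members in wild-type mice (horizontal axis) and in knockout-labelled mice (vertical axis), under TMM scaling, with the dashed line where they are equal. Most points lie below 0 on both axes (with library totals alone both sets of medians are above 0) and above the dashed line, Mrpl52 and Mrpl38 lie under it and Mrps25 on it, and Mrps6 stands far from the others at 2.32 and 3.39.

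Levels of different genes were compared per length, as CPM per kilobase of 1 transcript per gene, whose lengths ran from 418 to 7300 bases. In wild-type adipocytes the median was 18.6 for large and 13.3 for small subunit genes, in knockout-labelled adipocytes 25.1 and 21, and in wild-type livers 29.4 and 20.2. In wild-type adipocytes the range ran from Mrpl19 at 2.08 ± 0.119 (SD, n = 4) to Mrpl38 at 90.0 ± 20.1 CPM per kilobase in the large subunit, and from Mrps25 at 3.20 ± 0.377 to Mrps21 at 62.8 ± 10.7 in the small subunit. In wild-type livers Mrpl19 (2.90 ± 0.270) and Mrpl42 (102 ± 5.88), and Mrps25 (2.28 ± 0.175) and Mrps21 (83.9 ± 6.45), were at the ends. In the livers Mrpl52, at 102 ± 11.4, did not differ from Mrpl42 beyond the spread, and in wild-type adipocytes Mrpl42 (74.4 ± 6.46) was within the spread of Mrpl38. The transcript models of Mrpl19 and Mrps25 are long, at 5000 and 6073 bases. Their exons overlap exons of Gcfc2 and Nr2c2, respectively, on the other strand. The levels of Mrpl19 and Mrps25 are thus uncertain, since the use of strand in counting is not given. Per kilobase of coding sequence Mrps25 was at 37.9 ± 4.46 in wild-type adipocytes, rank 15 of 29, so its place at the low end rests on the length used, while Mrpl19 and Mrpl47 remained the lowest of the large subunit. The upper end of the large subunit rests on it too. Per coding length Mrpl51 was highest in wild-type livers (183 ± 24.5), against rank 33 per transcript length. In wild-type adipocytes Mrpl42 was then highest (116 ± 10.1) and Mrpl38 rank 5. Mrps21 stayed highest of the small subunit in both. The order of the 76 genes was alike in wild-type adipocytes and livers (Spearman's rho 0.870 across genes, which share length and annotation). Mrps6 moved from rank 25 of 29 small subunit genes in wild-type liver to rank 3 in wild-type and rank 1 in knockout-labelled adipocytes (121 ± 7.54 CPM per kilobase).

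Genes that work with the mitochondrial ribosome were counted in the same adipocyte comparison, against the 18.0% of all tested genes that rose. A list of 14 genes, called import genes below, held genes of protein import, the outer membrane channel, matrix chaperones and the enzyme citrate synthase (Cs). Of these 10 rose and 0 fell, with a median of 0.49. The risen genes included Timm23, the inner membrane import channel (0.64 ± 0.09, SE, adjusted p = 0.00109, edgeR with Benjamini-Hochberg adjustment), Vdac1, a channel of the outer membrane (0.55 ± 0.10, adjusted p = 0.00288), and Cs (0.64 ± 0.12, adjusted p = 0.00348). Of 15 translation factors 7 rose (median 0.18), led by Guf1, a translational GTPase (0.50 ± 0.09, adjusted p = 0.00364), and Gfm2, which takes part in ribosome recycling (0.50 ± 0.10, adjusted p = 0.00487). Of 27 assembly and ribosomal RNA factors 9 rose (median 0.22), including the helicase Ddx28 (0.80 ± 0.14, adjusted p = 0.00274) and Grsf1, a protein of mitochondrial RNA granules (0.41 ± 0.10, adjusted p = 0.0108). Of 6 ribosome proteins that carry other symbols Ptcd3 (0.59 ± 0.11, adjusted p = 0.00327) and Ict1 (0.34 ± 0.11, adjusted p = 0.0376) rose (median 0.21).

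Mitochondrial aminoacyl-tRNA synthetases, which charge the tRNAs that the ribosome uses, rose in 4 of 17 cases (median 0.19), with Iars2 at 0.29 ± 0.09 (SE, adjusted p = 0.0268, edgeR with Benjamini-Hochberg adjustment) and Hars2 at 0.25 ± 0.08 (adjusted p = 0.0336). Of 9 genes of mitochondrial DNA transcription and replication 2 rose (median 0.11), Tfb2m (0.43 ± 0.10, adjusted p = 0.00877) and the elongation factor Tefm (0.56 ± 0.14, adjusted p = 0.0117). Among 10 regulators of mitochondrial biogenesis 2 rose and 1 fell (median -0.02). The share that rose was near the 18.0% of all tested genes for synthetases (23.5%), mitochondrial DNA genes (22.2%) and these regulators. The receptor Esrra was up (0.56 ± 0.15, adjusted p = 0.0174) and Gabpb1, a partner of the ETS factor GABPA, down (-0.47 ± 0.12, adjusted p = 0.0174). In liver 0 genes of any of these lists passed the edgeR test, and 1 assembly factor and 1 regulator had an unadjusted p under 0.05. Leaving out 1 adipocyte library left 9 to 14 import genes and 4 to 7 translation factors (4 without KO-1139). It left 3 to 8 assembly factors (3 without WT-1138, KO-1139 or WT-1153, 4 without WT-1135 or KO-1152, 5 without KO-1151) and 0 to 6 synthetases (0 without WT-1135, WT-1138, KO-1139 or KO-1152, 1 without KO-1151, 2 without WT-1153). Of the ribosome proteins with other symbols 1 rose in place of 2 without WT-1135, WT-1138, WT-1153, KO-1139, KO-1151 or KO-1152, with age as a covariate or with library totals alone. Of the biogenesis regulators 1 rose in place of 2 when any library but KO-1137 and WT-1153 was left out, with limma-voom or with age as a covariate, and 0 fell without WT-1138 or KO-1139. With library totals alone, chosen for the lists after the data were seen, 7 import genes, 3 translation factors, 1 assembly factor, 0 synthetases and 0 DNA transcription genes rose, of the regulators 0 rose and 5 fell (median -0.21), the median of import genes stayed above 0 at 0.29 and those of translation factors (-0.01) and DNA transcription genes (-0.08) did not. With 76-day mice only, where 5.80% of all tested genes rose, 2 import genes, 1 assembly factor and 1 ribosome protein with another symbol rose. In that fit 0 translation factors, 0 synthetases, 0 DNA transcription genes and 0 regulators rose, and the median of import genes was 0.47. With the marker score as a covariate 0 genes of these lists rose. RNAs encoded by the mitochondrial genome were not analysed here.

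**Figure D5:**
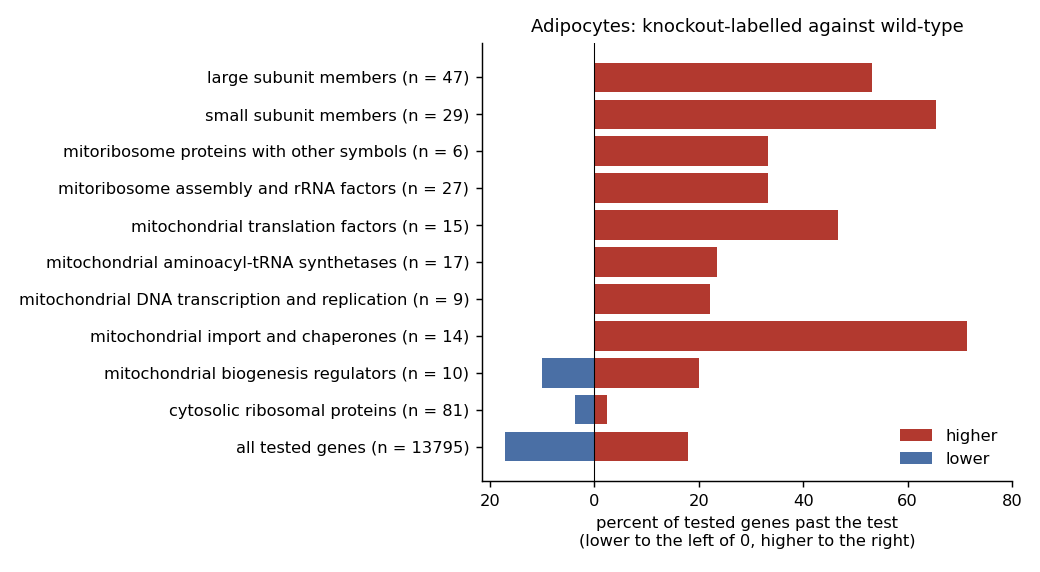
Percent of the tested genes of each list that passed the test in adipocytes (horizontal axis), higher in knockout-labelled mice to the right of 0 and lower to the left. Small and large subunit members and import genes (a list that includes Cs) have the longest bars to the right, at 65.5%, 53.2% and 71.4%, against 18.0% of all tested genes, under TMM scaling, and cytosolic ribosomal proteins have 2.47% to the right.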

How the data were processed

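Each deposited file gives 1 library's raw counts by gene symbol, which the authors made with bcl2fastq 2.17, STAR 2.5.2b and featureCounts 1.5.0 on mm10, per the submitters' processing notes. Not given in the sources used here are the gene annotation, the use of strand, and how read pairs and reads with several matches were counted. Low counts were not counts of independent molecules, since 77.9% of the values between 1 and 20 were even numbers. A run on counts divided by 2 and rounded up was therefore among the alternatives. Total counts were 28560887 to 53716669. Libraries of the same group differed well beyond counting error (chi-square over degrees of freedom 32.3 or more), and the spread between mice limits the precision.

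Counts were tested with edgeR 4.0.16 in R 4.3.3 (quasi-likelihood fit, TMM scaling, filterByExpr by group, two-sided, Benjamini-Hochberg adjustment over all tested genes, threshold 0.05), on the groups compared alone and on all 16 libraries for the difference of differences. The SE is the log2 difference divided by the root of the F statistic. Library means ± SD are TMM-scaled CPM over 16 libraries. The fits were tested on simulated counts. Alternatives were DESeq2 1.42.0, limma-voom (limma 3.58.1), RLE scaling, library totals alone, no filter, age, 76-day mice only, the mean log2 CPM of endothelial, fibroblast and mural markers as a covariate, the mouse as a block and leaving out each library. Both libraries of a mouse come from the same animal, per the labels, so mouse numbers pair the tissues. Pearson's r between the deviations of a mouse's libraries from their group means was -0.0592 to 0.0916 across genes. Mice are named WT-1135 and so on by genotype label and number.

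Members and gene lists were chosen with earlier results of these data known, so the lists are described by counts and medians and no test over a list was made. The named members are, per subunit in the adipocyte and wild-type tissue comparisons, the 6 called with the smallest p and the 3 with the largest rise and the 3 with the largest fall, the 3 with the smallest p in liver and for the difference of tissues, the Mrps18 paralogs, the highest and lowest per length, and the 2 with the smallest p of each list. Mrps36, Mrpl43, Mrpl10, Mrpl47, Mrps11 and Mrpl46 were named after their values were seen. Gene positions and lengths are from GENCODE M21 (GRCm38), with 1 principal transcript per gene, and promoter windows from RefSeq (GRCm38.p6). Protein sequences were not used here.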

Additional observations from a re-analysis of the deposited data

Results flagged for a closer look

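In 15 of the 29 members named by the rules of the methods the genotype difference in adipocytes differed from that in liver, by the test of the difference itself over 16 libraries (edgeR with Benjamini-Hochberg adjustment, 4 mice per genotype). Over all members it was 24 of 76, and 10.4% of all tested genes were higher by this test. A part of the 29 was named for small p-values or large differences in the adipocyte comparison or in this test, so their share in part describes that choice. In the small subunit the difference of differences was 1.08 for Mrps6 (1.23 in adipocytes and 0.17 in liver, adjusted p = 0.000127), 0.72 for Mrps2 (0.77 and 0.07, adjusted p = 0.00137), 0.84 for Mrps22 (0.83 and 0.01, adjusted p = 0.00177) and 0.61 for Mrps15 (0.60 and 0.01, adjusted p = 0.00516). It was 0.51 for Mrps9, 0.46 for Mrps17, 0.49 for Mrps27, 0.47 for Mrps16 and 0.46 for Mrps21, with adjusted p from 0.00501 to 0.0457. In the large subunit it was 0.75 for Mrpl40 (0.57 and -0.15, adjusted p = 0.00181), 0.77 for Mrpl50 (0.76 and 0.01, adjusted p = 0.00247) and 0.72 for Mrpl44 (0.62 and -0.08, adjusted p = 0.00291). Mrpl1 followed with 0.66, Mrpl42 with 0.53 and Mrpl49 with 0.41, with adjusted p from 0.00318 to 0.00929.

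In 2 groups of 4 libraries 1 library stood apart from the other 3, by a gap to the nearest library that was above Dixon's critical value as a share of the group's range. In wild-type liver Mrps18a was at 31.1 CPM in mouse WT-1135 and at 27.8 to 28.3 CPM in the others, a gap of 0.840 of the range. Mrpl22 was at 22.4 CPM in mouse WT-1136 and at 26.5 to 27.0 CPM in the others, a gap of 0.890 of the range. These are 1.61% of the 124 groups looked at, where chance gives about 5%.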

How the results depend on the processing

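With library totals alone the medians of all genes moved by -0.19 (genotype, adipocytes), 0.65 and 0.41 (tissue, wild-type and knockout-labelled) and -0.24 (difference of differences). Then 14 members rose in adipocytes (medians 0.10 large, 0.16 small), 26 were higher and 18 lower in wild-type adipocytes than liver (medians 0.01 and 0.08), 37 and 15 in knockout-labelled mice (medians 0.02 and 0.21), and 8 passed for the difference of differences (medians 0.08 and 0.12). The share of higher among called genes went from 51.3% to 24.9%, from 52.2% to 73.4%, from 50.7% to 65.0% and from 54.3% to 23.4%. Adipocyte counts were 7 with 76-day mice and 1 with the marker score (medians 0.17 and 0.20), and 3 members were higher in adipocytes with DESeq2 and with RLE scaling, the cause of which was not tested. Mrps18a changed sign in adipocytes with totals alone (-0.03) and the marker score (-0.04), and between tissues with totals alone (0.64), no filter (0.02), and without liver WT-1135 (0.03), adipocytes WT-1135 (0.02) or adipocytes WT-1138 (0.03), in a range from -0.17 to 0.03 over all libraries left out. Mrps18c was at 0.12 between tissues with totals alone.

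Leaving out each library gave 25 to 51 members risen in adipocytes, 3 to 6 higher and 52 to 59 lower between tissues in wild-type mice, 11 to 15 and 38 to 41 in knockout-labelled mice, and, leaving out each mouse, 12 to 38 for the difference of differences. With the mouse as a replicate block these counts were 5 and 55, 13 and 40, and 17, so the block moved none by over 1.5 times. Of the 17, 16 were among the 24 without the block. Of named members' values in settings other than leaving out 1 library or mouse, 291 kept direction and side of the threshold, 28 lost the call and 5 changed sign. In liver 0 members passed under all settings. Counts of genes risen in the other gene lists moved by over 1.5 times in 26 combinations of list and such setting and by less in 54. The lowest count of a member was 202, and the part of depth in the precision was not tested.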

Other observations

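The neighbours on the opposite strand that start within 1000 bases of a member were counted in the same adipocyte comparison. Of 26 such partners that are no members and were tested in adipocytes, 4 rose and 4 fell, with a median log2 difference of 0.11, where 18.0% of all tested genes rose and 17.1% fell. Of the 32 members with a partner 15 rose, with a median of 0.29, against a median of 0.35 for members without one. Mrps27 (0.42, adjusted p = 0.00790, edgeR with Benjamini-Hochberg adjustment) and its neighbour Ptcd2, a mitochondrial RNA-binding protein (0.42 ± 0.10, SE, adjusted p = 0.0106), rose alike from starts 81 bases apart. Mrps18b rose, and Ppp1r10, a subunit of a nuclear phosphatase complex whose start lies 45 bases away, was at -1.27 ± 0.15 (adjusted p = 0.000362). Mrpl40 rose as well, and Hira, a histone chaperone gene 175 bases away, was at -0.22 ± 0.07 (adjusted p = 0.0448). These 3 pairs were picked after their values were seen.

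Members with and without a motif had like medians in adipocytes, at 0.30 and 0.32 for the ETS-type, 0.34 and 0.31 for the NRF1-type, 0.29 and 0.31 for the YY1-type and 0.31 and 0.32 for the SP1-type motif. Cytosolic ribosomal proteins, which serve the translation of nuclear mRNAs, were counted beside the mitochondrial set. Of 81 tested, 2 rose (2.47%) and 3 fell (3.70%), against 18.0% and 17.1% of all tested genes, and the median was -0.15 against -0.01 for all genes. The count that fell was 34 with library totals alone, 10 with DESeq2, 6 with all 16 libraries in the fit, and 0 with 76-day mice only or the marker score. It was 11 without wild-type library WT-1138, 10 without knockout-labelled library KO-1152, and 1 without KO-1139 or KO-1151. The smallest p-values belonged to Rpl39l, a paralog known from testis (1.30 ± 0.19, adjusted p = 0.00131), and Rps27 (-0.99 ± 0.24, adjusted p = 0.0111), whose mean was 1.06 CPM in knockout-labelled adipocytes.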
